A study of Mus musculus with 192 samples.

Results

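The genes that encode the proteasome, the protease complex that degrades ubiquitin-tagged proteins, were measured in single mouse embryonic stem (ES) cells. They were the genes of the molecule count table whose names start with Psma, Psmb, Psmc, Psmd, Psme, Psmf or Psmg followed by a digit, which gave 49 of 24264 genes. A molecule was detected for 48 of them, and for 13 in all 96 wells. Psmb11, the catalytic subunit of thymic epithelium, was at 0 in every well. Psmc3ip met the naming rule but encodes a recombination protein named as a partner of Psmc3, and it was kept in the sums as 1 of the 49.

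In the ubiquitin-proteasome system, proteins tagged with ubiquitin chains are unfolded and cut into peptides. The core particle is a barrel of stacked rings, with alpha subunits in the outer rings and beta subunits, some of them proteolytic, in the inner rings. The regulatory particle caps it: its base holds a ring of ATPases that unfold the substrate, and its lid removes the ubiquitin. Alternative activators can cap the same barrel, and interferon can exchange the proteolytic subunits for those of the immunoproteasome, which favours peptides for antigen presentation. ES cells are known for high proteasome activity.

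The cells were of R1, a mouse ES cell line, grown on irradiated mouse embryonic fibroblast feeders and separated from them by settling. Annexin V beads removed dying cells, and the rest were frozen in medium with DMSO, thawed and captured singly in the 96 chambers (wells) of 1 microfluidic chip. Every well received ERCC spike-in RNAs and 21 cycles of PCR, and sequencing covered the libraries both at that stage and with 9 cycles added, which gives 192 samples, 96 of each form. Each column of the table carries the barcode of both forms, so the effect of the added cycles was not analysed here. Because the wells hold cells of 1 culture, they are 1 sample, and no p-value is given.

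Wells fell into 45 low-RNA wells with 8774 to 35543 gene molecules (median 22234) and 51 RNA-rich wells with 51390 to 573648 (median 98750). The median share of mitochondrially encoded RNA was 29.1% in the first (7.58% to 38.3%) and 10.4% in the second (6.0% to 16.5%). The ribosomal RNA precursor Rn45s made up 5.89% and 2.37%. Wells C03 and H03 held far more spike-in molecules than the others and H12 far fewer. All 13 ES cell markers were detected in both ranges, with a median summed level of 55.5 per 10000 gene molecules in low-RNA wells (40.2 to 147.0) and 94.8 in RNA-rich wells (19.5 to 228.1). The 14 feeder markers summed to medians of 14 (8.72 to 23.9) and 9.89 (5.42 to 189.6), with Col3a1 and Thy1 at 0 in the low-RNA wells. The 9 trophectoderm markers summed to medians of 6.21 (0.612 to 16.2) and 3.66 (1.95 to 74.8), with Elf5 at 0 in both.

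Levels are given as molecules per 10000 gene molecules of the well. Each transcript molecule adds 1 count whatever its length, so levels compare genes by molecules and not per length. The 49 genes had 77716 molecules in all, 1.13% of gene molecules. Core particle genes gave 58% of these and lid and base genes 31.4%, while the activators gave 4.40%, the assembly chaperones 4.19% and the immunoproteasome genes 1.22%. Uniquely mapped reads gave at least 90% of the molecules for 40 of the genes. Psma3 (15.2%) and Psma5 (48.8%) were below 50%, and Psme2 (51.3%), Psmd2 (71.7%), Psmc1 (72.1%), Psmd11 (84.4%), Psma4 (89.4%) and Psmb5 (89.7%) lay between. The levels of these 8 genes are uncertain because they can hold molecules of near-identical copies. Longer transcripts had lower levels in RNA-rich wells, with a Spearman rho between length and mean level of -0.343 over 48 proteasome genes, and of -0.339 over the 5154 genes with a mean level of at least 0.2, all from the same wells.

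The summed level of proteasome genes was higher in RNA-rich wells. In low-RNA wells it ran from 57.1 (well G07) through a median of 76.7 to 129.2 (well H12). In RNA-rich wells it ran from 79.7 (well C06) through 121.1 to 155.2 (well D05). The ranges overlapped: 12 RNA-rich wells lay above every low-RNA well, and 25 low-RNA wells lay below every RNA-rich well. H12 stood apart from the other low-RNA wells, of which the next held 102.6, and H12 also had the lowest mitochondrial share of them (7.58%). The count of 12 was thus set by H12 alone. The lower quartile of RNA-rich wells was 110.2, above every low-RNA well but H12. Means were 77.9 ± 12.6 and 118.7 ± 16.2 (SD over 45 and 51 wells), a ratio of 1.52, which was 1.55 without C03, H03 and H12. In molecules, a low-RNA well held a median of 177 (88 to 321) and an RNA-rich well 1230 (431 to 6849).

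**Figure D1:**
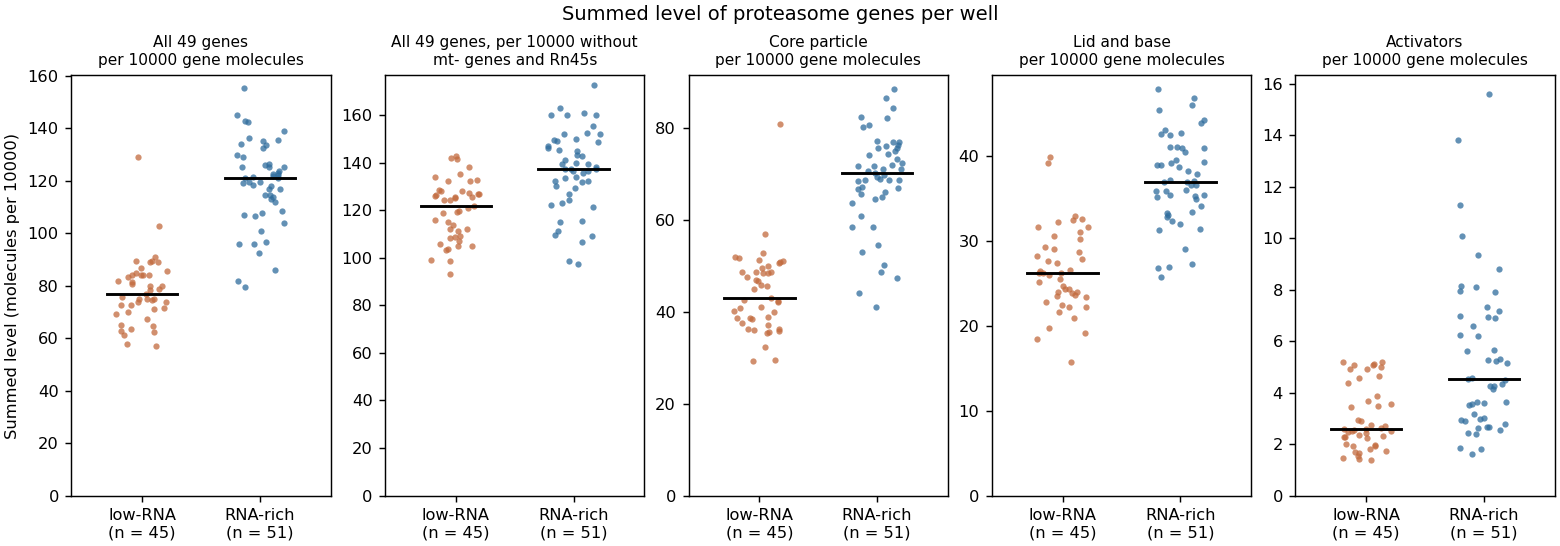
Summed level of proteasome genes per well, in molecules per 10000 gene molecules, with 1 point per well and bars at the medians. The second panel leaves mitochondrially encoded genes and Rn45s out of the total, and the medians of all 49 genes move from 76.7 and 121.1 to 121.7 and 137.3.

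Much of this difference moved with the make-up of the total. When mitochondrially encoded genes and Rn45s were left out of it, the means were 120.0 ± 12.5 and 136.8 ± 17.0, a ratio of 1.14. Within each range, the sum was lower where the mitochondrial share was higher, with a Spearman rho of -0.570 over 45 low-RNA wells and -0.357 over 51 RNA-rich wells, and of -0.121 and -0.101 without those molecules. The wells share the chip, and the sum and the share have the same total. Relative to the spike-in molecules of the well, the ratio of means was 4.66. The part of RNA quality in these ratios was not tested.

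Of the 45 proteasome genes with a mean level of at least 0.2 over all wells, 26 (57.8%) were at least 1.5-fold higher in RNA-rich wells, where 34.6% of 5154 genes at that level were. None of the 45 was 1.5-fold higher in low-RNA wells, where 10.1% of all genes were. Their median ratio was 1.57, against 1.30 for all genes (a log2 shift of 0.38), so it was 1.21 times the median ratio of all genes. Part of this went with level, since at a mean of at least 1 the counts were 15 of 29 (51.7%) against 42.8% of 1433 genes, and the medians 1.51 and 1.42. At that level none was higher in low-RNA wells, against 9.7% of all genes. Without mitochondrial RNA and Rn45s, 6 of 45 (13.3%) were past 1.5-fold against 9.69% of 5956 genes, and none was higher in low-RNA wells against 22.2%. The median ratios were then 1.18 and 0.961. By all gene molecules, ratios were lower for longer transcripts over the 5154 genes (Spearman rho between length and ratio -0.511). Over 48 proteasome genes that rho was -0.170. The part of transcript length in the difference between proteasome genes and all genes was not tested. The genes that did not reach 0.2 were Psmb8, Psmb9, Psmb11 and Psma8.

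The alpha genes, whose products form the outer rings and the gate of the barrel, had a mean level of 3.83 per gene in RNA-rich wells. Psma7 was the highest, at 1.85, 7.19 and 14.4 (lowest, median and highest of RNA-rich wells) against 0.980, 3.82 and 7.90 in low-RNA wells. Its means were 3.79 ± 1.34 and 7.23 ± 2.49, a ratio of 1.91, with many wells of both kinds in the shared range. Psma3 was next, at a mean of 4.46 ± 1.25 in RNA-rich wells. Psma4 was the lowest in RNA-rich wells of the alpha genes other than Psma8, but not in low-RNA wells, at 2.76 ± 1.46 in low-RNA wells and 2.85 ± 1.07 in RNA-rich wells, a ratio of 1.03. Only Psma7 and Psma1 (2.33 ± 1.23 and 3.92 ± 1.66, ratio 1.69) were past 1.5-fold of 7 alpha genes at a sufficient level, where 34.6% of all genes were. The eighth alpha gene, Psma8, which encodes a variant alpha subunit known from testis, had 59 molecules in all.

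The beta genes stood higher, at a mean of 5.46 per gene in RNA-rich wells, and 6 of 7 were past 1.5-fold, where 34.6% of all genes were. Psmb5 encodes the subunit with chymotrypsin-like activity and had the highest level of all 49 genes. It was at 1.52, 4.05 and 11 in low-RNA wells and at 3.83, 7.58 and 14.5 in RNA-rich wells, with means of 4.21 ± 1.81 and 7.99 ± 2.30 and a ratio of 1.90. Most RNA-rich wells lay above the low-RNA median, although the ranges overlapped. Psmb6, the caspase-like subunit, had means of 4.41 ± 1.61 and 7.03 ± 2.01 (ratio 1.6). Psmb7, the trypsin-like subunit, had 3.06 ± 1.30 and 5.00 ± 1.76 (ratio 1.64). The noncatalytic subunits Psmb1 (3.90 ± 2.18 and 6.98 ± 2.17, ratio 1.79), Psmb4 (1.68 ± 0.985 and 3.17 ± 1.31, ratio 1.89) and Psmb2 (2.55 ± 1.21 and 3.84 ± 1.08, ratio 1.51) were also past it. Psmb3, at 3.03 ± 1.46 and 4.23 ± 1.32, was not (ratio 1.40).

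As a whole, the 15 core genes summed to 44.1 ± 8.72 in low-RNA wells and 68.8 ± 10.5 in RNA-rich wells, a ratio of 1.56, or 1.17 without mitochondrial RNA and Rn45s. The same ratios were 1.44 and 1.07 for the alpha genes and 1.68 and 1.25 for the beta genes. The barrel holds each of the constitutive subunits in equal number. Their mean molecule levels in RNA-rich wells spanned 2.81-fold from Psma4 to Psmb5, when Psma8 was left out.

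**Figure D2:**
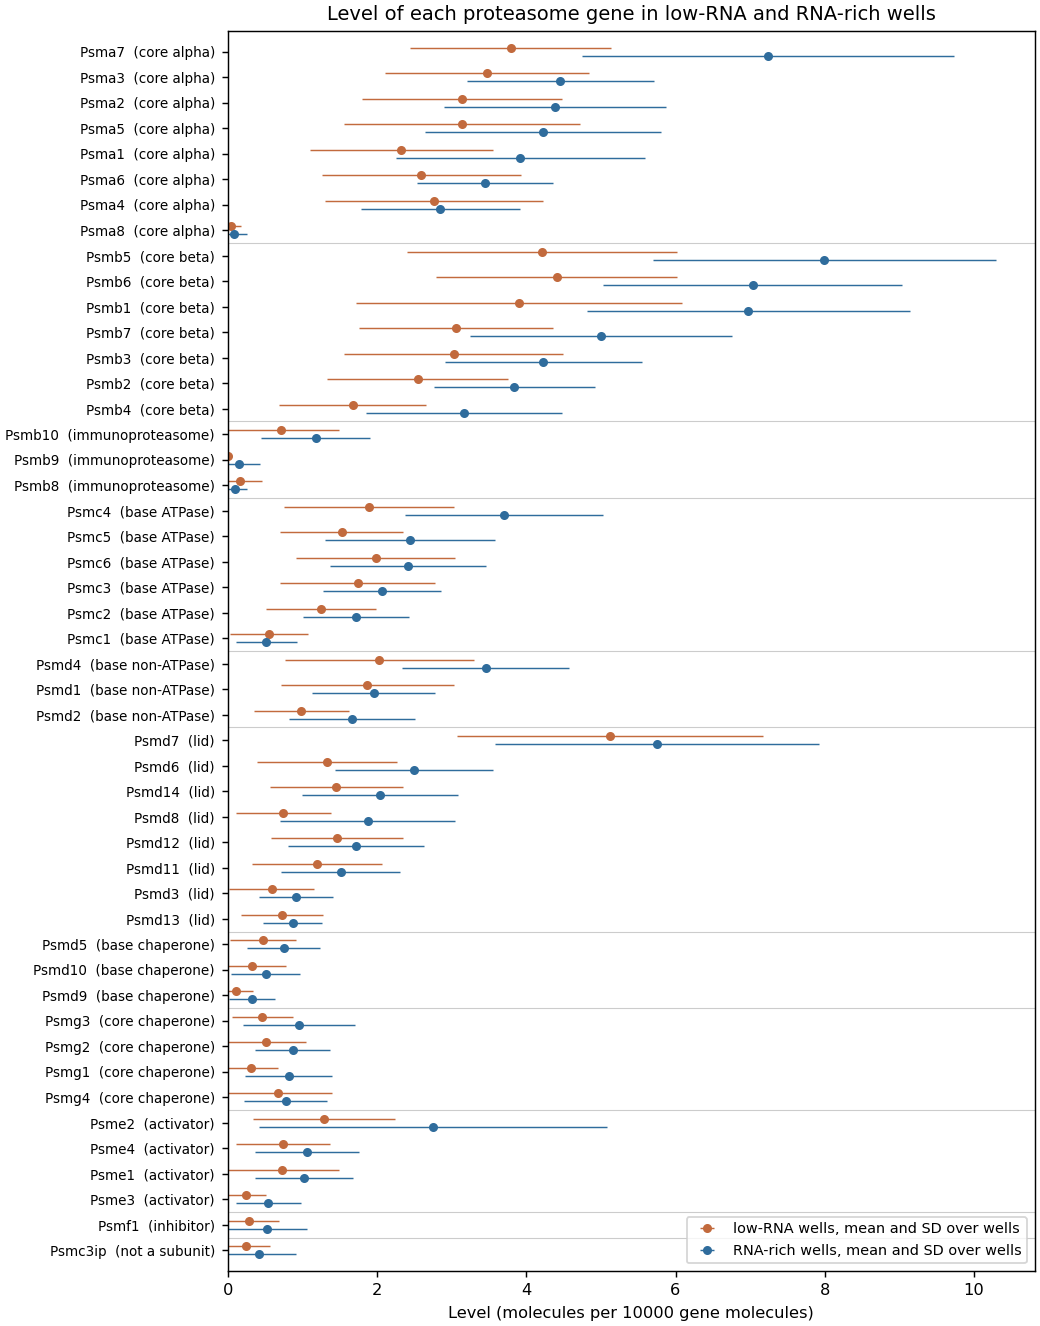
Mean level of each proteasome gene in molecules per 10000 gene molecules, with bars of 1 SD over 45 low-RNA wells and 51 RNA-rich wells (bars are cut at 0). Psmb5, Psma7, Psmb6 and Psmb1 lead in RNA-rich wells, and the SD bars of the 2 kinds of well overlap for every gene.

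The promoter of Psmb5 is shown because this gene was the highest and because its window holds a match to the core of the antioxidant response element. The capitals mark the match. The element, spelled TGACNNNGC and searched on both strands, is bound by Nrf1 and Nrf2 (genes Nfe2l1 and Nfe2l2), which are known to raise proteasome genes. The window runs from 250 bases before to 50 after the start and is chr14:54617946-54618245 on the minus strand (RefSeq, GRCm38.p6).
Psmb5: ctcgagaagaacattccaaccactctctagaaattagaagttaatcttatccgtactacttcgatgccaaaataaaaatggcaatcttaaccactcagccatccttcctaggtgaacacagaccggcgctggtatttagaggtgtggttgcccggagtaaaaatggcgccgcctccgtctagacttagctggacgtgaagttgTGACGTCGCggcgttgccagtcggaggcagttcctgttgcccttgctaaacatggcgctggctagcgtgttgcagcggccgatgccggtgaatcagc
The element was found in 6 of the 41 proteasome genes in the promoter table (14.6%) and in 14% of 27025 genes. The 6 genes were Psmb5, Psmb6, Psmd9, Psmd12, Psmc6 and Psme4. The CCAAT box (CCAAT on either strand) was in 15 of 41 (36.6%) and in 41.1% of all genes. Psmd3, Psmb1, Psma8, Psmg2, Psmb7, Psmc3, Psmb2 and Psmd7 were not in the promoter table and were not searched for any motif.

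The 17 lid and base genes had a mean level of 2.18 per gene in RNA-rich wells, below the core. Their sum was 26.5 ± 4.95 in low-RNA wells and 37.1 ± 5.27 in RNA-rich wells, a ratio of 1.40, or 1.05 without mitochondrial RNA and Rn45s. The ranges were 15.8 to 39.9 and 25.7 to 47.8 and overlapped widely. Of the 17, 7 were past 1.5-fold, 4 of 9 in the base and 3 of 8 in the lid. Of all genes, 34.6% were at a mean level of at least 0.2 and 42.8% at a mean of at least 1. The core share of proteasome molecules had a median of 56.6% in low-RNA wells and 58.5% in RNA-rich wells, within ranges of 48.9% to 64.3% and 47.8% to 65.1%.

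Among the 6 ATPase genes of the base, Psmc4 was the highest and most different between the wells. It was at 0, 1.69 and 6.12 in low-RNA wells and at 1.31, 3.51 and 6.89 in RNA-rich wells, with means of 1.89 ± 1.14 and 3.71 ± 1.32 (ratio 1.96). Psmc5 was past 1.5-fold as well (1.53 ± 0.823 and 2.45 ± 1.14, ratio 1.6), and Psmc6 was not (1.99 ± 1.06 and 2.41 ± 1.05). Psmc2 was low (1.25 ± 0.742 and 1.72 ± 0.708), and Psmc1 the lowest, at 0.555 ± 0.527 and 0.519 ± 0.405, the only gene at a sufficient level whose ratio of means was below 1 (0.935). Its ratio of pooled levels was 1.13 (exact 95% interval 0.835 to 1.56, counting error only), so its direction turned with how wells were averaged. Of the other base genes, Psmd4, the ubiquitin receptor Rpn10, had 2.03 ± 1.27 and 3.45 ± 1.12 (ratio 1.70). The scaffold gene Psmd2 had 0.985 ± 0.635 and 1.67 ± 0.840 (ratio 1.69), while the other scaffold gene, Psmd1, had 1.87 ± 1.16 and 1.95 ± 0.819 (ratio 1.05).

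Psmd7, a lid subunit that pairs with the deubiquitinase Psmd14, was the highest lid gene and the fifth highest of all. It was at 1.69, 4.93 and 10.0 in low-RNA wells and at 2.25, 5.67 and 12.4 in RNA-rich wells, nearly the same range, with a ratio of means of 1.12. In low-RNA wells its mean of 5.12 ± 2.05 was above that of every other proteasome gene. Psmd8, a structural lid gene (Rpn12), was at 0, 0.612 and 2.36 in low-RNA wells and at 0, 1.55 and 7.05 in RNA-rich wells, with means of 0.744 ± 0.636 and 1.87 ± 1.17. Its ratio of 2.52 was the largest in the lid and was 1.90 without mitochondrial RNA and Rn45s, and it was the only lid or base gene past 1.5-fold by that total. Psmd6 (1.33 ± 0.936 and 2.50 ± 1.05, ratio 1.87) and Psmd3 (0.588 ± 0.567 and 0.913 ± 0.492, ratio 1.55) were the others past 1.5-fold, both structural lid genes (Rpn7 and Rpn3). Psmd13, which encodes Rpn9, was the lowest lid gene in RNA-rich wells and Psmd3 in low-RNA wells, with Psmd13 at 0.727 ± 0.554 and 0.869 ± 0.396.

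Promoter matches to the ETS site, spelled CCGGAAG and searched on both strands, were found in 15 of 41 proteasome genes (36.6%) and in 9.93% of all genes. They were in 9 of 14 lid and base genes, 1 of 11 core genes, 2 of 6 assembly chaperones, 2 of 4 activators and Psmc3ip. ETS factors are a family of transcription factors common at the promoters of housekeeping genes. The lid gene Psmd12 is shown because its window holds this site and the antioxidant response element core, both in capitals with the response element first and both on the reverse strand. The window is chr11:107479278-107479577 on the plus strand (RefSeq, GRCm38.p6).
Psmd12: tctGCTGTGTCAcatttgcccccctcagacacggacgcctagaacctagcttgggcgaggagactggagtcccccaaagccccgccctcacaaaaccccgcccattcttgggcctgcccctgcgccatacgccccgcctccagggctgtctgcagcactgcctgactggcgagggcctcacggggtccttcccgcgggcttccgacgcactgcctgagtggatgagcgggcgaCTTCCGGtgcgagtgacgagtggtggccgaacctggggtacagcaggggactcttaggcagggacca
A match is a string of letters, and binding was not measured here.

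The assembly chaperones, which build the complex and are not part of it, had a mean level of 0.716 per gene in RNA-rich wells, below the core and the lid and base. Their sum was 2.89 ± 1.21 in low-RNA wells and 5.01 ± 1.51 in RNA-rich wells, a ratio of 1.73 (1.30 without mitochondrial RNA and Rn45s). Of the 7, 6 were past 1.5-fold, where 34.6% of all genes were. Psmg1, which with Psmg2 starts the alpha ring, was at 0, 0.286 and 1.13 in low-RNA wells and 0, 0.689 and 2.28 in RNA-rich wells, with means of 0.310 ± 0.359 and 0.821 ± 0.583 (ratio 2.65). Its partner Psmg2 had 0.520 ± 0.524 and 0.874 ± 0.502 (ratio 1.68). Psmg3 had 0.462 ± 0.407 and 0.955 ± 0.745 (ratio 2.07), while its partner Psmg4, at 0.680 ± 0.722 and 0.775 ± 0.555, was not past 1.5-fold (ratio 1.14). The base chaperones Psmd5 (0.477 ± 0.441 and 0.750 ± 0.491, ratio 1.57), Psmd10 (0.324 ± 0.456 and 0.511 ± 0.464, ratio 1.57) and Psmd9 (0.117 ± 0.220 and 0.326 ± 0.314) were.

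Psmd9 had the largest ratio of the 45 genes, 2.78, on 13 molecules in low-RNA wells and 200 in RNA-rich wells. The ratio of pooled levels was 2.66, with an exact 95% interval of 1.52 to 5.09 that covers counting error only. Psmg1, Psmg3 and Psmd9 stayed past 1.5-fold without mitochondrial RNA and Rn45s, at 1.97, 1.54 and 2.04. Psmf1, which encodes the inhibitor PI31, had 0.285 ± 0.398 and 0.528 ± 0.534 (ratio 1.86). Psmc3ip had 0.242 ± 0.325 and 0.415 ± 0.497 (ratio 1.71).

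Of the activator genes, Psme2 varied most between RNA-rich wells. Uniquely mapped reads gave 51.3% of the molecules of Psme2, so its level is uncertain. Psme1 and Psme2 encode the alpha and beta subunits of PA28, an interferon-inducible ring that opens the core, Psme3 a nuclear relative and Psme4 the large activator PA200. Psme2 was at 0, 1.13 and 3.42 in low-RNA wells and at 0.328, 2.10 and 11.3 in RNA-rich wells, with means of 1.29 ± 0.954 and 2.75 ± 2.33, a ratio of 2.13 (1.58 without mitochondrial RNA and Rn45s). The high end belonged to a few RNA-rich wells, led by D05 (11.3, 141 molecules), A11 (9.34, 48 molecules) and B09 (7.94, 76 molecules). Psme1 was at 0, 0.565 and 4.29 in low-RNA wells and 0.221, 0.815 and 2.88 in RNA-rich wells, with a ratio of means of 1.40. Psme4 had 0.738 ± 0.629 and 1.07 ± 0.697 (ratio 1.44). Psme3 had 0.247 ± 0.261 and 0.545 ± 0.432 (ratio 2.21, and 1.61 without mitochondrial RNA and Rn45s). The 4 genes summed to 3.01 ± 1.24 and 5.38 ± 3.01, a ratio of 1.79 (1.33).

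Psme1 and Psme2 followed each other across RNA-rich wells, with a Spearman rho of 0.627 over 51 wells, the highest of 903 pairs of proteasome genes. It was 0.604 without D05. Over the 45 low-RNA wells, where a median well holds few molecules of either, it was -0.162. These wells share the chip and the total by which both levels were divided. Unique reads gave 51.3% of the molecules of Psme2 and 96.7% of those of Psme1. Psme3 did not move with Psme2 (rho -0.151). On GRCm38 (GENCODE M21), Psme1 lies on chromosome 14 from 55578123 to 55581529 on the plus strand, and Psme2 on chromosome 14 from 55587441 to 55591113 on the minus strand. Their promoters are shown because these neighbours moved together, from chr14:55578244-55578543 on the plus strand for Psme1 and chr14:55591052-55591351 on the minus strand for Psme2 (RefSeq, GRCm38.p6).
Psme1: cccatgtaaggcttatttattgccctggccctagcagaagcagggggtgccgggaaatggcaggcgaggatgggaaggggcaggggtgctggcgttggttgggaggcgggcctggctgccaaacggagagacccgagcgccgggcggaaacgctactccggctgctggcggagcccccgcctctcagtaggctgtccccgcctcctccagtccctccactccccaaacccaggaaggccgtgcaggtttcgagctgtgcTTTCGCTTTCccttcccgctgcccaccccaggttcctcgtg
Psme2: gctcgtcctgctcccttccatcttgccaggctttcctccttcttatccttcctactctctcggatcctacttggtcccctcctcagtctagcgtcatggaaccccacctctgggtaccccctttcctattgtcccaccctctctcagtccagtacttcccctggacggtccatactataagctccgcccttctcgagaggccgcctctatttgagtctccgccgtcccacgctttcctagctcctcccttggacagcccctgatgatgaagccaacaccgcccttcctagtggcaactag
The capitals in Psme1 mark a match to the repeat bound by interferon regulatory factors, spelled as GAAA, any 2 bases and GAAA, and searched on both strands. This match lies after the RefSeq start, and the whole window of Psme1 lies inside the GENCODE span of the gene. The window of Psme2 holds none of the 5 motifs searched. The repeat was found in 5 of 41 proteasome genes (12.2%) and in 3.99% of all genes, and the other 4 were Psmb3, Psmg4, Psmd4 and Psmd9.

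**Figure D3:**
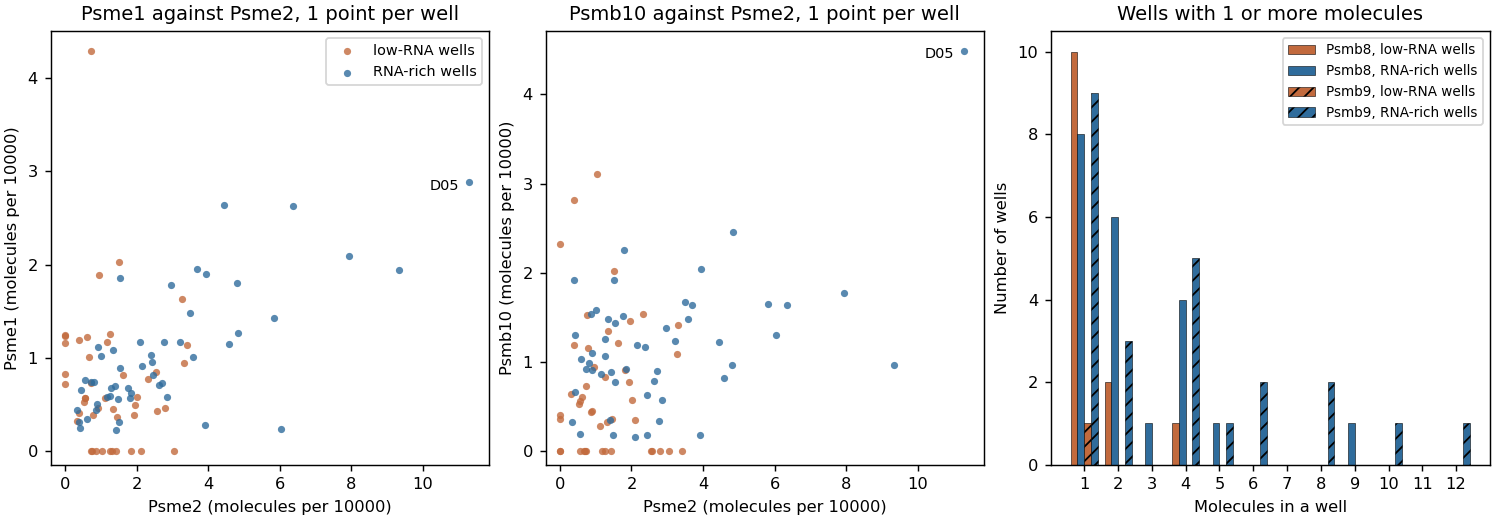
Left and middle, Psme1 and Psmb10 against Psme2 in molecules per 10000 gene molecules, 1 point per well, with D05 highest in Psme2 at 11.3. Right, number of wells by molecules of Psmb8 and Psmb9, where Psmb9 was found in 1 low-RNA well and 24 RNA-rich wells.

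The immunoproteasome genes were expressed at low levels next to the constitutive subunits they replace. Over all wells, Psmb8, Psmb9 and Psmb10 gave 945 molecules and Psmb5, Psmb6 and Psmb7 gave 12928, so they made up 6.81% of the molecules of the 6 catalytic genes (95% interval 6.40% to 7.24%, exact, for counting error alone). The share was 7.30% in low-RNA wells (5.92% to 8.88%) and 6.76% in RNA-rich wells (6.33% to 7.22%), which overlap. Most of it was Psmb10. That gene was 19.6% of the molecules of Psmb10 and Psmb7, while Psmb8 was 1.37% of Psmb8 and Psmb5, and Psmb9 was 1.93% of Psmb9 and Psmb6. Summed levels were 0.891 ± 0.820 and 1.43 ± 0.892, a ratio of 1.61 (1.20 without mitochondrial RNA and Rn45s).

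Psmb10 had 72 molecules in 31 of 45 low-RNA wells and 711 in all 51 RNA-rich wells. It was at 0, 0.525 and 3.10 in low-RNA wells and at 0.156, 1.10 and 4.48 in RNA-rich wells, the highest again in D05, with means of 0.718 ± 0.774 and 1.18 ± 0.731 (ratio 1.65). Psmb9 had 1 molecule in the low-RNA wells and 90 in 24 RNA-rich wells, of which B09 held 12 and D07 held 10. The ratio of its pooled levels was 15.6, with a 95% interval from 2.73 to 622 that covers counting error only. Psmb8 went the other way, with 18 molecules in 13 low-RNA wells and 53 in 21 RNA-rich wells, a pooled ratio of 0.510 (0.294 to 0.925). After each well was thinned to 8000 gene molecules, Psmb8 was found in 8 low-RNA and 3 RNA-rich wells and Psmb9 in 1 and 3, so at equal depth too few wells held Psmb9 to show a difference. As a share of Psmb8 and Psmb5, Psmb8 was 4.21% in low-RNA wells (2.51% to 6.57%) and 1.12% in RNA-rich wells (0.839% to 1.46%). The share of Psmb9 in Psmb9 and Psmb6 was 0.227% (0.00574% to 1.26%), from 1 molecule, and 2.11% (1.70% to 2.58%). These intervals cover counting error only and not the spread between wells. The 3 fullest wells held 44.4% of the Psmb8 molecules of low-RNA wells and 33.3% of the Psmb9 molecules of RNA-rich wells.

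Some wells with much Psme2 also held many molecules of the immunoproteasome genes. D05 had 56 molecules of Psmb10, 9 of Psmb8 and 4 of Psmb9, and B09 had 17, 3 and 12. A11 had 5, 2 and 0. These wells were picked by their Psme2 level. Over 51 RNA-rich wells the rho of Psme2 was 0.498 with Psmb8 (0.464 without D05), 0.264 with Psmb10 and 0.262 with Psmb9. The values for Psmb8 and Psmb9 rest on few molecules, 53 in 21 RNA-rich wells and 90 in 24, against 711 of Psmb10. In low-RNA wells the rho of Psme2 was -0.0479 with Psmb8, -0.0102 with Psmb10 and 0.0465 with Psmb9. Feeder markers summed to 14 in D05, 8.88 in B09 and 32.3 in A11, against a median of 9.89, and trophectoderm markers to 8.33, 3.66 and 30.7, against a median of 3.66. Well E02, with 160.3 of feeder markers, held 0 molecules of Psmb8 and Psmb9, 5 of Psmb10 and 4 of Psme2. Well D02 had the highest feeder markers (189.6) and held 15 molecules of Psme2 (2.71 per 10000, above the RNA-rich median of 2.10), 0 of Psmb8, 1 of Psmb9 and 5 of Psmb10. The part of these other cell types' RNA in the values was not tested.

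Psmb8 and Psmb9 lie on chromosome 17 of GRCm38 on either side of the peptide transporter gene Tap1. Psmb9 runs from 34181987 to 34187764 on the minus strand, Tap1 from 34187553 to 34197225 on the plus strand and Psmb8 from 34197721 to 34201454 on the plus strand. Psmb9 and Tap1 overlap at their starts on opposite strands, and whether genes were counted by strand is not given in the sources used here. Tap1 had 1 molecule in low-RNA wells and 30 in RNA-rich wells. The promoters of Psmb8 and Psmb9 are shown because they lie beside Tap1 and encode subunits that replace Psmb5 and Psmb6. The windows are chr17:34197945-34198244 on the plus strand and chr17:34187281-34187580 on the minus strand (RefSeq, GRCm38.p6). Both windows lie wholly inside the spans of their genes given above, so the bases before those spans were not searched.
Psmb8: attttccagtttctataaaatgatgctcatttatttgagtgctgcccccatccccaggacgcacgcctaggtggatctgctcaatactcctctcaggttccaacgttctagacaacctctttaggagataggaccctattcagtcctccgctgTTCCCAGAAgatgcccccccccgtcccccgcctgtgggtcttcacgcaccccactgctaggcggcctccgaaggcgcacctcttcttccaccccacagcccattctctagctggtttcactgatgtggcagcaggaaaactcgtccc
Psmb9: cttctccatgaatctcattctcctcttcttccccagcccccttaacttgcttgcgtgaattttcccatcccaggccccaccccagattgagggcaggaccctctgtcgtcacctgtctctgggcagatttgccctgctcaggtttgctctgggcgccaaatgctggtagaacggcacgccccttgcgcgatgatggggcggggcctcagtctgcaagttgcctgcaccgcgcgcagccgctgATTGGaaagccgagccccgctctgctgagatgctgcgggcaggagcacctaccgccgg
Capitals mark a match to the gamma-activated sequence bound by STAT factors in Psmb8 (TTCNNNGAA, its own reverse complement) and a CCAAT box on the reverse strand in Psmb9. The gamma-activated sequence was in 3 of 41 proteasome genes (7.32%), with Psmd2 and Psmg1 the others, and in 9.55% of all genes.

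Variation between RNA-rich wells was set against the spike-ins. The noise ratio is the squared coefficient of variation of a gene, after division by the gene total of the well, over that fitted to spike-ins at the same mean. A gene was counted as above technical noise where its ratio was at least 2 with all wells and also without its highest well. This held for 2 of 48 proteasome genes (4.17%), against 6.32% of the 7768 genes that averaged 1 molecule or more. They were Psme2, at 6.22 (4.94 without D05, with 51.3% unique reads), and Psma7, at 2.38 (2.07 without its highest well). Psma7 was at 2.19, and at 1.91 without its highest well, when C03 and H03 were left out. Without the 10 wells with the most feeder markers, Psma1 joined them, and 3 of 48 genes (6.25%) were above technical noise against 3.99% of all genes, so the order of the shares turned. The order turned as well with the spike-in total (20.8% against 11.2%) and with the spike-in fit over RNA-rich wells (8.33% against 7.0%). At a ratio of 1.5 it also turned (31.25% against 17.2%).

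Psmd7 (2.36 and 1.9999), Psmd8 (2.36 and 1.53), Psma1 (2.15 and 1.97) and Psmc3ip (2.02 and 1.57) were at 2 or more only with all wells. The lowest ratios belonged to the lid gene Psmd13 (0.604) and to Psma6 (0.743). Among genes with a mean of 30 to 100 molecules, the 18 proteasome genes had a median ratio of 1.64 and all 409 genes 1.80. Between 10 and 30 the medians were 1.41 and 1.55, and between 1 and 10 they were 1.15 and 1.24. In the low-RNA wells 0 of 39 were above technical noise, against 0.519% of 2695 genes. Median ratios there were 0.387 for proteasome genes and 0.446 for all genes, so the spike-in fit lay above the variation of most genes. A ratio of 2 was therefore hard to reach in low-RNA wells, and the count of 0 says little about variation between them.

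**Figure D4:**
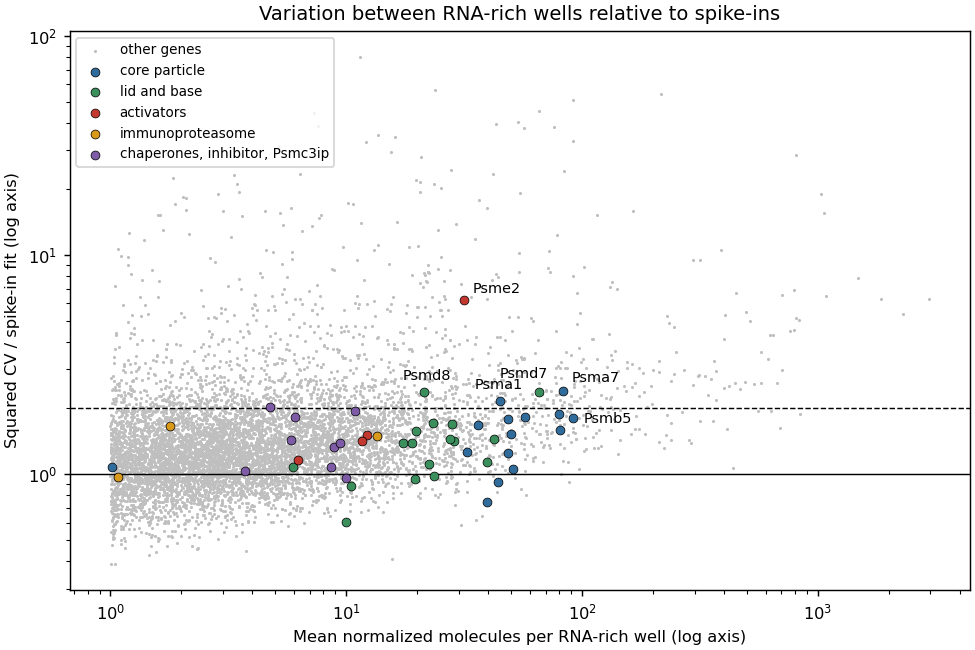
Noise ratio (squared coefficient of variation over the spike-in fit, log axis) against mean normalized molecules per RNA-rich well (log axis) for all genes averaging 1 molecule or more; coloured points are proteasome genes. The solid line is the fit and the dashed line a ratio of 2, and Psme2 stands alone among proteasome genes at 6.22.

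Pairs of proteasome genes had correlations near 0 from well to well, somewhat higher within the core and among genes of higher level. Over 51 RNA-rich wells the 903 pairs among 43 genes with a mean level of at least 0.5 had a median Spearman rho of 0.0554, with 63.1% of pairs above 0, against 0.0167 and 54.2% for all pairs of 2846 genes. Pairs within the core had a median of 0.156, with 85.7% of 91 above 0. Pairs within the lid and base had 0.0184, and pairs between core and lid or base 0.0543. The classes were not matched by level. Every core gene compared had a mean of 2.85 or more in RNA-rich wells, and many lid and base genes were below 2. Among the 23 genes at a mean level of 2 or more the median was 0.142, against 0.0412 for all genes at that level, and 0.119 without mitochondrial RNA and Rn45s. The wells share depth and total, and these values describe 1 chip.

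**Figure D5:**
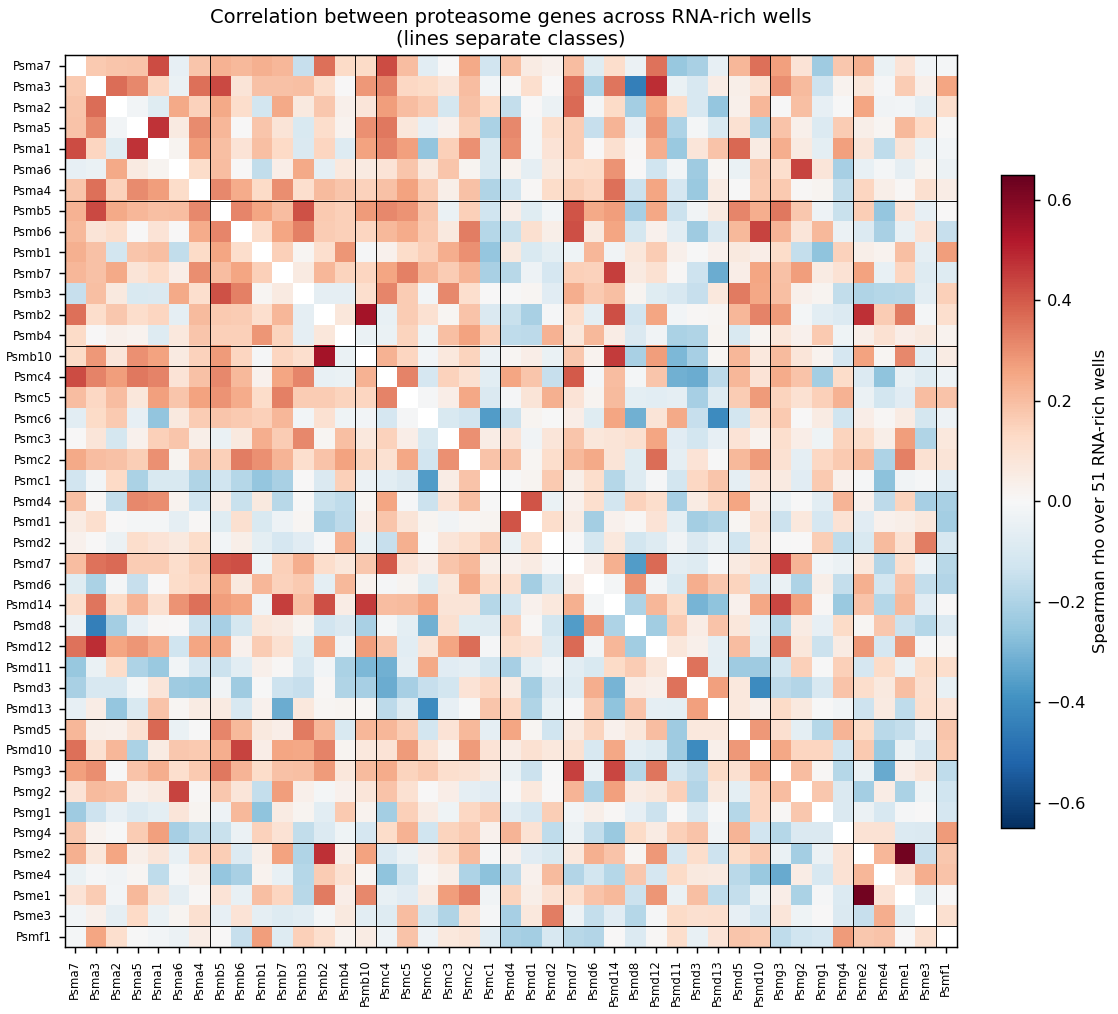
Spearman rho between proteasome genes over 51 RNA-rich wells, from levels in molecules per 10000 gene molecules, with lines between classes. The core block at the upper left is mostly above 0 (85.7% of its pairs), and the single darkest cell is Psme1 with Psme2 at 0.627.

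The genes whose level was most like the summed proteasome level were sought among 1504 other genes with a mean level of at least 1. The 10 with the highest Spearman rho over 51 RNA-rich wells included Hmgb1 (0.678), Eif5a (0.648), Cct8 (0.642), Npm1 (0.641), Gapdh (0.639), Hmgn2 (0.635), Sumo2 (0.598), Hspe1 (0.592) and 2810417H13Rik (0.582). Over 45 low-RNA wells these genes had 0.278, 0.137, 0.227, 0.529, 0.497, 0.236, 0.335, 0.503 and 0.252. Hmgb1, Hmgn2 and Sumo2 had 4.48%, 2.83% and 20.2% of molecules from unique reads and are uncertain. The sum had a rho of 0.0940 with the ES cell markers, -0.307 with feeder markers and -0.494 with Rn45s in RNA-rich wells.

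Further genes of the pathway were counted in the same way. Of 18 related genes, which encode further subunits, maturation factors and ubiquitin shuttles, 10 were at least 1.5-fold higher in RNA-rich wells and 1 in low-RNA wells. Of all 5154 genes at a sufficient level, 34.6% and 10.1% were. The median ratio of the related genes was 1.52, against 1.30 for all genes. By level the related genes were led by Shfm1, a small lid subunit (6.42 ± 2.11 and 9.35 ± 2.63, ratio 1.46), and by the segregase gene Vcp (2.84 ± 1.27 and 4.42 ± 1.80, ratio 1.56, 38.5% unique reads). Also past 1.5-fold were the shuttle genes Ubqln4 (1.99) and Ubqln1 (1.73), the Vcp cofactors Nploc4 (2.05) and Ufd1l (1.53), the proteasome-bound thioredoxin gene Txnl1 (1.98), the ubiquitin receptor Adrm1 (1.66), the deubiquitinase Usp14 (1.52) and Akirin2 (1.53), whose product brings proteasomes into the nucleus. AI314180, the gene of the proteasome-binding protein Ecm29, was 1.83-fold higher in low-RNA wells (0.353 ± 0.602 and 0.193 ± 0.190). Without mitochondrial RNA and Rn45s, 2 of the 18 were higher in RNA-rich wells and 2 in low-RNA wells, against 9.69% and 22.2% of 5956 genes.

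Of the 6 genes of ubiquitin supply, 3 were past 1.5-fold, where 34.6% of all genes were. Among them were the fusion gene Rps27a (6.87 ± 2.51 and 11.3 ± 2.94, ratio 1.64) and Ubb (ratio 1.59, with 2.08% unique reads). Of 8 regulators of proteasome genes, 3 were at a sufficient level. Nfe2l1 had 0.912 ± 0.762 and 1.06 ± 0.586 (ratio 1.17), and Nfe2l2 had 0.356 ± 0.438 and 0.540 ± 0.456 (ratio 1.52). Of 10 antigen presentation genes 4 were at a sufficient level, and B2m was the only one past 1.5-fold, where 34.6% of all genes were. B2m had 1.06 ± 0.622 and 1.61 ± 2.31 (ratio 1.52, and 1.13 without mitochondrial RNA and Rn45s). It was followed in level by H2-K1 (0.254 ± 0.506 and 0.320 ± 0.407). The 10 genes summed highest in E02 (15.8) and D02 (8.49), the wells with the highest feeder markers. Nlrc5, a regulator of such genes, was at 0 in every well.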

How the data were processed

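The deposited values were molecule counts per gene and cell barcode, per the file headers, made by the authors from reads with molecular identifiers. The submitters' processing notes name Bowtie and mm10 (GRCm38). A read matching several places counted at the exon hit nearest a 5' end, per the file headers. Besides 24264 genes the table held 96 spike-ins and 1554 repeat types, 25914 features in all. The 96 wells had 8774 to 573648 gene molecules. No well was removed and no doublet caller was run.

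Levels are molecules per 10000 gene molecules. Low-RNA wells had at most 40000 gene molecules and RNA-rich wells at least 50000. Ratios are of mean levels over wells, and calls used a ratio of 1.5 among genes with a mean level of at least 0.2. With 1 culture, no test was run. Intervals are exact (Clopper-Pearson) at 95% and cover counting error only, so small differences between genes with few molecules were not detectable. The technical fit was a gamma model of squared CV, 3.33/mean + 0.00970, over 62 spike-ins averaging 0.1 or more. The scripts were tested on simulated data. Alternatives changed the total, the minimum level, the noise threshold and the wells kept.

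The members and gene lists were chosen with earlier results of these data known. Named genes were, in each class, the 2 highest and 2 lowest levels, those past 1.5-fold or above technical noise and the 6 catalytic genes. In the other lists they were those past 1.5-fold and the 2 highest, and the 10 genes most correlated with the sum were added. A few of these genes are not reported here. Promoters came from a RefSeq table (GRCm38.p6) matched by symbol, which held 41 of the 49 genes, and gene positions from GENCODE M21. Transcript lengths were those of the deposited table. Tools were Python 3.11.15, numpy 2.4.6, pandas 2.3.3, scipy 1.17.1, statsmodels 0.14.6 and matplotlib 3.10.9.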

Additional observations from a re-analysis of the deposited data

How the results depend on the processing

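With 1 culture there was no replicate to leave out. No paired analysis was possible because each column carries both library forms and no test was run. Of 53 alternatives, 28 stayed within the spread or limit set for their result, 24 moved further, 1 lost a call and 0 changed direction. A change of direction was defined only for the ratios of RNA-rich over low-RNA level and for the median rho. It could not be given for counts of genes, noise results, the rho of Psme1 and Psme2 or the immunoproteasome share. These labels cover the values of the proteasome genes and not the shares of all genes beside them.

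Ratios of RNA-rich over low-RNA wells without mitochondrial RNA and Rn45s were 1.14 for all 49 genes, 1.17 for the core, 1.05 for lid and base, 1.33 for activators and 1.20 for the immunoproteasome. Relative to spike-ins they were 4.66, 4.72, 4.36, 5.82 and 5.27. Pooled molecules gave 1.57 for all genes and 1.61 for the core. The count of 26 genes past 1.5-fold became 6 without mitochondrial RNA and Rn45s and 15 at a minimum level of 1. The count of 0 higher in low-RNA wells became 1 (Psmb8) with no minimum level.

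The 2 of 48 genes above technical noise (4.17%, against 6.32% of all genes) became 10 with the spike-in total (20.8% against 11.2%). They became 4 with the fit over RNA-rich wells (8.33% against 7.0%) and 15 at a ratio of 1.5 (31.25% against 17.2%). Without the 10 wells with the most feeder markers they became 3 (6.25% against 3.99%). Without C03 and H03, with the fit over the other RNA-rich wells, they became 4 (8.7% against 8.82%). Only in this last setting did the share of proteasome genes stay below that of all genes. The median rho of 0.0554 became 0.265 with the spike-in total and 0.0308 in low-RNA wells, and 0.142 at a minimum level of 2. The rho of Psme1 and Psme2 was 0.604 without D05. The immunoproteasome share was 7.30% in low-RNA wells. The cause of these shifts was not tested. The settings without C03 and H03 and without D05 and the minimum level of 2 were chosen after the data were seen. Low-RNA wells held a median of 177 proteasome molecules, which limits single genes there.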

Other observations

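Psma8 encodes an alpha subunit known from spermatogenic cells, where it can take the place of Psma7, yet it was found in these cells. It had 4 molecules in 4 low-RNA wells and 55 in 24 RNA-rich wells, all from unique reads, against 4593 molecules of Psma7. The molecules were uneven, with 12 of the 55 in well C09 and no more than 1 in 14 of the 24 wells. After thinning to 8000 gene molecules it was found in 2 low-RNA and 3 RNA-rich wells. The summed proteasome level of C09 was 135.7, within the range of the other RNA-rich wells.

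Among the genes whose levels ran most against the summed proteasome level over 51 RNA-rich wells were Ankrd11 (Spearman rho -0.578), Ctsd (-0.576), Flna (-0.518) and Lars2 (-0.516). Ctsd encodes the lysosomal protease cathepsin D, which degrades proteins in another compartment. Over 45 low-RNA wells the same genes had 0.0146, 0.114, -0.187 and 0.105, and the levels share the total of the well.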
